A study of Mus musculus with 6 samples.

Results

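The neutrophil granule genes are the 10 genes Mpo, Elane, Prtn3, Ctsg, Ltf, Camp, Ngp, Lcn2, S100a8 and S100a9, found by symbol in a count table of 43472 gene symbols from mouse intervertebral discs (IVDs). All 10 were found, and all 10 passed the filter on low counts that left 16152 genes to be tested. They were read in the order in which a maturing neutrophil switches them on, with 4 early genes (Mpo, Elane, Prtn3, Ctsg), 4 middle genes (Ltf, Camp, Ngp, Lcn2) and 2 late genes (S100a8, S100a9).

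The study compared the IVDs of Col2Cre;Adgrg6 f/f mutant mice with those of Cre (-) littermates by RNA sequencing at postnatal day 20 (P20), to see which transcripts change when the adhesion G protein-coupled receptor ADGRG6 is lost. Each genotype has 3 libraries, each a pool of thoracic and lumbar discs from 2 to 3 mice of the strain labelled C57B6/J, and the 3 pools are labelled as biological replicates. The controls are named wild type in the genotype label and Col2Cre controls in the sample titles. Col2Cre is a collagen II driver that recombines the whole IVD, and in this model also the periosteum and the trabecular bone of the vertebra, by birth, so recombination was not limited to the disc. The sex of the mice was not given in the sources used here. The count table lists Adgrg6 as Gpr126, at 109 ± 14.7 on the counts-per-million scale (CPM; SD, n = 3) in controls and 122 ± 16.1 in mutants. This count sums the whole gene, and which exons the f/f allele loses was not given, so it does not check the labels and the genotypes are those of the labels.

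Libraries held 9061491 to 12017008 counts on genes, of which the 10 granule genes took 155 to 1450, or 0.00163 to 0.0147%. The tissue label matched its defining markers, with the 8 cartilage markers, which include the collagen II gene Col2a1, summing to 78793 to 140171 CPM in each library. Control replicate 1 stood apart with 3609 CPM on 6 skeletal muscle markers against 65.0 to 148 CPM in the other 5 libraries, and the granule genes are also given without it.

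Neutrophils mature in bone marrow from promyelocytes through myelocytes to segmented cells, and they fill their granules with whatever proteins are being made at the time. The primary or azurophil granules, loaded first, hold the haem enzyme myeloperoxidase and the serine proteases neutrophil elastase, proteinase 3 and cathepsin G, whereas the secondary granules hold lactoferrin, cathelicidin and lipocalin. Messenger RNA for the azurophil proteins is therefore found mostly in promyelocytes and is shut off before the cell leaves the marrow, while S100a8 and S100a9 messenger RNA is carried into the mature cell. The healthy IVD is largely avascular and the vertebral marrow lies on the far side of the cartilaginous endplate.

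Start-site regions of the early genes are shown because these 4 had the highest log2 fold changes among the 10, and the region of Ltf because its log2 fold change was the smallest. Each is the 300-base window of RefSeq on GRCm38.p6, from 250 bases before to 50 bases after the start of the gene, printed 5′ to 3′ on the gene's own strand. RefSeq starts differ from the outermost GENCODE M21 starts of the gene spans given with the values, lying inside the span by 203 bases for Mpo, 65 for Elane, 5191 for Prtn3, 0 for Ctsg and 21 for Ltf, so the Prtn3 window lies within the GENCODE gene. The windows are Mpo chr11:87793534-87793833 (plus strand), Elane chr10:79886062-79886361 (plus), Prtn3 chr10:79879417-79879716 (plus), Ctsg chr14:56102525-56102824 (minus) and Ltf chr9:111019042-111019341 (plus). Capitals mark the letters GAGGAA, which the myeloid factor PU.1 can bind, and TTGCNNAA, a C/EBP sequence, searched on both strands, so that TTCCTC marks GAGGAA on the opposite strand. All 10 genes matched a RefSeq window.
Mpo: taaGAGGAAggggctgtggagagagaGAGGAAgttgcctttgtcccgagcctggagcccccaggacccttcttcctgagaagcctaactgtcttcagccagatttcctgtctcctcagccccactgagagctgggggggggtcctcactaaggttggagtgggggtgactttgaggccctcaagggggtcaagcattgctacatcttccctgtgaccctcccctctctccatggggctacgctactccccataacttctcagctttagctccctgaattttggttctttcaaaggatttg
Elane: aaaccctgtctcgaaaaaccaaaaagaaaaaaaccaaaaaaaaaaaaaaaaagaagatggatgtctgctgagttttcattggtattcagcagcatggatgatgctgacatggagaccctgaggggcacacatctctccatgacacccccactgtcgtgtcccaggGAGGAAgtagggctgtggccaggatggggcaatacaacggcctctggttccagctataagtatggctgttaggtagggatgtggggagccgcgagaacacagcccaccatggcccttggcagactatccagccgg
Prtn3: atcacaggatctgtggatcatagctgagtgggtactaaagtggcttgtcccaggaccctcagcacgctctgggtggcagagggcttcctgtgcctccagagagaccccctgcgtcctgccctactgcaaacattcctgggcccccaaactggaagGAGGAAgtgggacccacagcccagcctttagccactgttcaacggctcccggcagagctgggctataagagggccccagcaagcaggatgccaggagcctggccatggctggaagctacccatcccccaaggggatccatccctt
Ctsg: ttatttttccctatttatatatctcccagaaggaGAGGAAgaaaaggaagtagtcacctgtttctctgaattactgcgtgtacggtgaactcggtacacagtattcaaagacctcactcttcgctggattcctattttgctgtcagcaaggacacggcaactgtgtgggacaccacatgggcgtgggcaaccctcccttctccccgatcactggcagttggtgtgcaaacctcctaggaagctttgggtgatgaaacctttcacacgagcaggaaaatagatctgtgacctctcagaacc
Ltf: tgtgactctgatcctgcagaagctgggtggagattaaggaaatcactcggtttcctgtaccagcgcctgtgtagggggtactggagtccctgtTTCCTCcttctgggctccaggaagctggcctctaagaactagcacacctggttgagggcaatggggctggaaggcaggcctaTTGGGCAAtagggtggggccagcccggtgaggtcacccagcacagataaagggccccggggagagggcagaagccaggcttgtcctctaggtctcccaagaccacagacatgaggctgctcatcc

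GAGGAA stood in the windows of 7 of the 10 genes, against 28.3% of 32851 RefSeq windows of this length in mouse. It was in the windows of all 4 early genes and, among the rest, in those of Ltf, Lcn2 and S100a8. TTGCNNAA stood in 4 of 10, in Ltf, Ngp, Lcn2 and S100a9, against 10.8% of all windows, and in none of the 4 early windows. TGTGGT, a RUNX sequence, stood in 3 of 10 against 16.8% of all windows, and AACNGTC, a MYB sequence, in 1 of 10 against 8.01%. These letters are a description of the windows, and neither binding nor its effect was measured in these libraries.

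Across the 10 granule genes the mean level was higher in mutant IVDs for every gene, but none passed an adjusted p under 0.05 in edgeR (quasi-likelihood test, adjusted by Benjamini-Hochberg across the 16152 genes). That test called 1 gene in all, which is 0.00619% of those tested, and the gene was Prss50, a serine protease gene that is no granule gene. At an unadjusted p under 0.05 with the mutant higher it called 2 of the 10, Mpo and Prtn3, against 2.89% of all genes. A log2 fold change above 0 was found for 10 of 10 against 48.4% of all genes, and one of at least 1 for 6 of 10 (Mpo, Elane, Prtn3, Ctsg, Lcn2 and S100a8) against 1.31%. With 1 library left out this last count ran from 2 of 10 (Mpo and Prtn3, without mutant replicate 1, against 1.22% of all genes) to 10 of 10 (without control replicate 3, against 1.89%). The 3 mutant libraries all lay above the 3 controls for 2 of 10, again Mpo and Prtn3, against 5.45% of all genes. The median log2 fold change was 1.11 over the 10 genes and -0.01 over all genes tested. In bulk tissue a larger number of neutrophil-lineage cells and more of these RNAs per cell cannot be told apart.

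The early genes had the highest log2 fold changes. Mpo, which encodes the myeloperoxidase that turns hydrogen peroxide into hypochlorous acid, lies at chr11:87793581-87804413 on the plus strand of GRCm38 in GENCODE M21. It was at 2.25, 4.55 and 5.47 CPM in control replicates 1, 2 and 3 and at 30.5, 11.8 and 12.7 CPM in mutant replicates 1, 2 and 3. All mutant libraries lay above all controls, and the exact Poisson 95% intervals of the nearest pair, 4.27 to 6.91 CPM in control replicate 3 and 9.91 to 13.8 CPM in mutant replicate 2, did not meet. These intervals cover counting error only, since reads without molecular identifiers are not independent molecules. The mean was 4.09 ± 1.66 CPM in controls and 18.3 ± 10.5 CPM in mutants (SD, n = 3), 4.43-fold, with a log2 fold change of 2.15 (SE 0.44), an unadjusted p of 0.000661 and an adjusted p of 0.534 in edgeR. By p it ranked 20 of 16152 genes.

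Prtn3 encodes proteinase 3, a protease that cleaves matrix and cytokine proteins, and lies at chr10:79874476-79883174 (plus). It had 0, 26 and 28 counts in controls and 130, 77 and 33 in mutants, which is 0, 2.89 and 2.19 CPM against 14.8, 6.28 and 3.51 CPM. The groups did not overlap, but their nearest libraries, control replicate 2 (95% interval 1.89 to 4.23 CPM) and mutant replicate 3 (2.41 to 4.92 CPM), overlapped in counting error. By the same interval the count of 0 in control replicate 1 allows up to 0.395 CPM. The log2 fold change was 2.26 (SE 0.88), with an unadjusted p of 0.0285 and an adjusted p of 0.676 in edgeR, from 1.69 ± 1.51 to 8.19 ± 5.88 CPM (SD, n = 3).

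Elane, 3.07 kb beyond Prtn3 on the same strand at chr10:79886247-79888215, encodes neutrophil elastase, which cleaves elastin and other matrix proteins. Its levels were 0.749, 0.999 and 3.99 CPM in controls and 14.7, 2.45 and 2.97 CPM in mutants. Mutant replicate 1 was highest, while control replicate 3 lay above both other mutants, so the groups overlapped. The means were 1.91 ± 1.80 and 6.70 ± 6.92 CPM (SD, n = 3), with a log2 fold change of 1.76 (SE 0.81), an unadjusted p of 0.0557 and an adjusted p of 0.691 in edgeR.

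Ctsg, which encodes cathepsin G, a protease with chymotrypsin-like activity, lies at chr14:56099881-56102574 (minus) and had the fewest reads of the early genes. It was at 0, 1.33 and 1.41 CPM in controls and 4.21, 2.12 and 1.27 CPM in mutants, from 0, 12 and 18 counts against 37, 26 and 12. Mutant replicates 1 and 2 lay above every control and mutant replicate 3 did not. The log2 fold change was 1.44 (SE 0.93), with an unadjusted p of 0.152 and an adjusted p of 0.778 in edgeR.

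**Figure D1:**
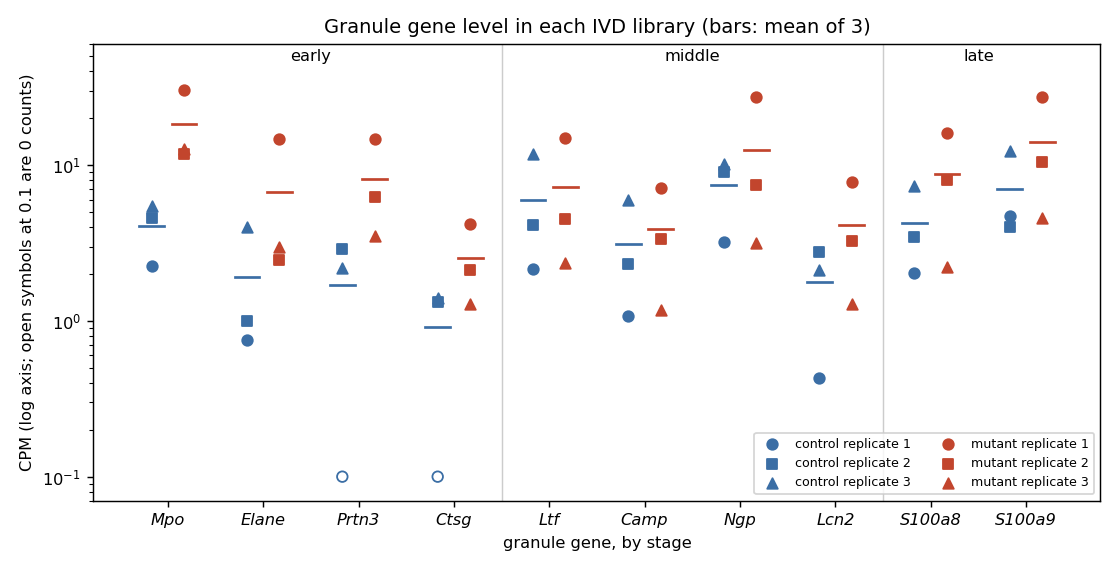
CPM of each granule gene (log axis, genes in order of stage) in the 3 control and 3 mutant libraries, 1 symbol per library, with open symbols at 0.1 standing for 0 counts. Mutant replicate 1 is the highest library for all 10 genes, and all 3 mutants lie above all 3 controls for Mpo and Prtn3 alone.

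With all libraries, the middle genes each had a smaller log2 fold change than any early gene and overlapped between genotypes in every case. Without control replicate 2, Lcn2 (1.64) lay above the early gene Elane (1.44), and without mutant replicate 3 Lcn2 did not overlap. Ltf encodes lactoferrin, the iron-binding protein of secondary granules, at chr9:111019271-111042767 (plus). It was at 2.14, 4.11 and 11.8 CPM in controls and at 15.0, 4.49 and 2.34 CPM in mutants. Control replicate 3 and mutant replicate 1 were both high, and the remaining libraries of both genotypes were interleaved. The means were 6.02 ± 5.11 and 7.28 ± 6.79 CPM (SD, n = 3) and the log2 fold change was 0.25 (SE 0.72), less than its error, with an unadjusted p of 0.735 in edgeR.

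Camp, the gene of the antimicrobial cathelicidin, lies on the same chromosome at chr9:109847379-109849617 (minus). Levels of 1.07, 2.33 and 5.94 CPM in controls stood beside 7.17, 3.35 and 1.17 CPM in mutants, the same pattern of libraries as for Ltf. Its log2 fold change was 0.30 (SE 0.73; unadjusted p of 0.692 in edgeR). Ngp, the gene of neutrophilic granule protein, a cystatin-related protein, lies at chr9:110419747-110423012 (plus). It was at 3.21, 9.10 and 10.2 CPM in controls and 27.2, 7.43 and 3.19 CPM in mutants, so that mutant replicate 1 was the highest library, while control replicate 1 and mutant replicate 3, with 30 counts each, were level at the low end. Its log2 fold change was 0.74 (SE 0.67; unadjusted p of 0.299).

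Lcn2, the gene of lipocalin 2, which binds bacterial siderophores and is also made by cells outside the neutrophil lineage, lies at chr2:32384633-32388252 (minus). It was at 0.428, 2.78 and 2.11 CPM in controls and 7.85, 3.26 and 1.27 CPM in mutants. As for Ctsg, mutant replicates 1 and 2 were above every control and mutant replicate 3 was not. Its log2 fold change of 1.21 (SE 0.77; unadjusted p of 0.148 and adjusted p of 0.774 in edgeR) was the highest of the middle genes.

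The late genes encode calprotectin, a calcium-binding heterodimer of S100A8 and S100A9 that is released in inflammation and made by monocytes as well as neutrophils. S100a8 (chr3:90668978-90670035, plus) and S100a9 (chr3:90692632-90695721, minus) lie 22.6 kb apart. S100a8 was at 2.03, 3.44 and 7.35 CPM in controls and 16.0, 8.08 and 2.23 CPM in mutants, and S100a9 at 4.71, 3.997 and 12.4 CPM against 27.5, 10.4 and 4.57 CPM. In both genes mutant replicate 3 lay among the controls, so the groups overlapped. Log2 fold changes were 1.02 (SE 0.65; unadjusted p of 0.149) for S100a8 and 0.99 (SE 0.61; unadjusted p of 0.135) for S100a9 in edgeR, with adjusted p-values of 0.776 and 0.761. The ratio of S100a8 to S100a9 counts, which takes out only a level that both genes share, was 0.629 ± 0.217 in controls and 0.615 ± 0.145 in mutants (SD, n = 3).

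**Figure D2:**
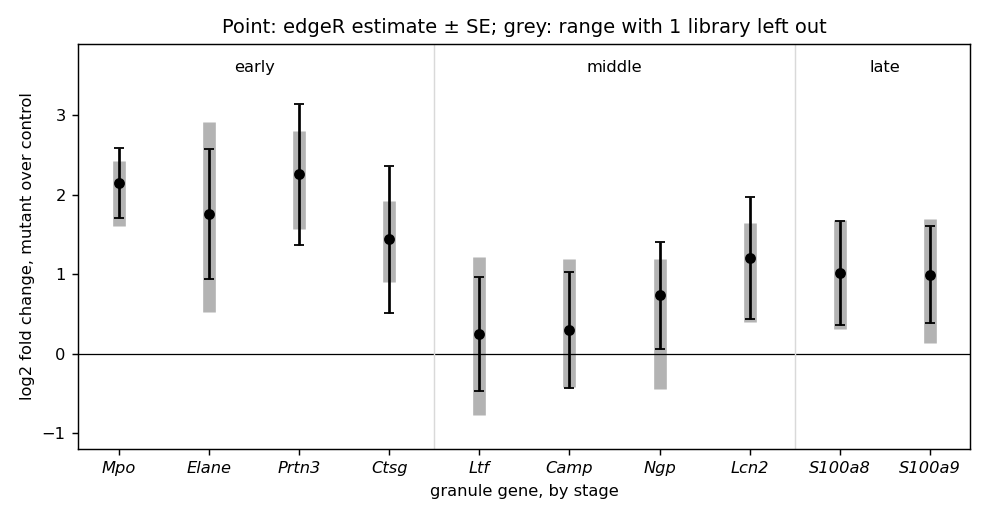
Log2 fold change of mutant over control for each granule gene in order of stage. Black points are edgeR estimates with bars of 1 SE and grey bars are the range with 1 library left out at a time. Mpo (2.15) and Prtn3 (2.26) are highest and Ltf (0.25) is lowest, close to the median of all genes tested (-0.01).

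Relative to exon length, the order of levels was led by the late genes in both genotypes. In control IVDs S100a9 was at 13.4 ± 8.87 CPM per kb of exon (SD, n = 3), followed by S100a8 at 6.16, Ngp at 6.13, Camp at 4.11, Elane at 1.94, Ltf at 1.74, Mpo at 1.19, Prtn3 at 0.977, Ctsg at 0.884 and Lcn2 at 0.675. In mutant IVDs S100a9 (27.2 ± 22.9), S100a8 (12.7) and Ngp (10.3) came first again, followed by Elane (6.81), Mpo (5.35), Camp (5.14), Prtn3 (4.73), Ctsg (2.45), Ltf (2.11) and Lcn2 (1.57), all as CPM per kb. Each neighbouring pair in either order differed by less than the larger of its SDs, so no neighbour was set apart from the next.

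The early genes made up a larger part of the granule transcripts in each mutant library than in any control. Summed over the 4 early genes, CPM were 3.00, 9.77 and 13.1 in controls and 64.2, 22.6 and 20.5 in mutants, with no overlap. Summed over the 4 middle genes they were 6.85, 18.3 and 30.02 against 57.2, 18.5 and 7.97, and over the 2 late genes 6.74, 7.44 and 19.7 against 43.6, 18.5 and 6.80, both overlapping. The log2 ratio of mutant to control means was 2.05 for the early, 0.60 for the middle and 1.02 for the late sums.

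As a share of all counts on the 10 genes, the early genes took 18.1, 27.5 and 20.8% in controls and 38.9, 37.9 and 58.1% in mutants. The mean was 22.1 ± 4.85% in controls and 45.0 ± 11.4% in mutants (SD, n = 3), a difference of 22.9 percentage points. The exact binomial 95% intervals of the nearest libraries, 22.7 to 32.7% in control replicate 2 and 34.4 to 41.5% in mutant replicate 2, did not meet, in counting error alone. The share of the middle genes was 41.3, 51.6 and 47.8% in controls and 34.7, 31.1 and 22.6% in mutants, without overlap, whereas the late share overlapped at 31.0 ± 9.86 and 25.6 ± 5.93%. For the middle share the intervals of the nearest libraries did meet, 33.5 to 49.5% in control replicate 1 and 32.2 to 37.2% in mutant replicate 1. The shares of a library add to 100%, so the middle share is no separate result from the early share. A share needs no scaling between libraries, and mutant replicate 3, which had few granule reads in all (332), had the highest early share. Mpo alone took 13.5, 12.8 and 8.72% of the granule counts in controls and 18.5, 19.7 and 36.1% in mutants. These shares were put together after the members were chosen with results known, so they are given as description with no test. With CPM per kb in place of counts the early share was 12.7 ± 4.75% in controls and 27.1 ± 8.45% in mutants.

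**Figure D3:**
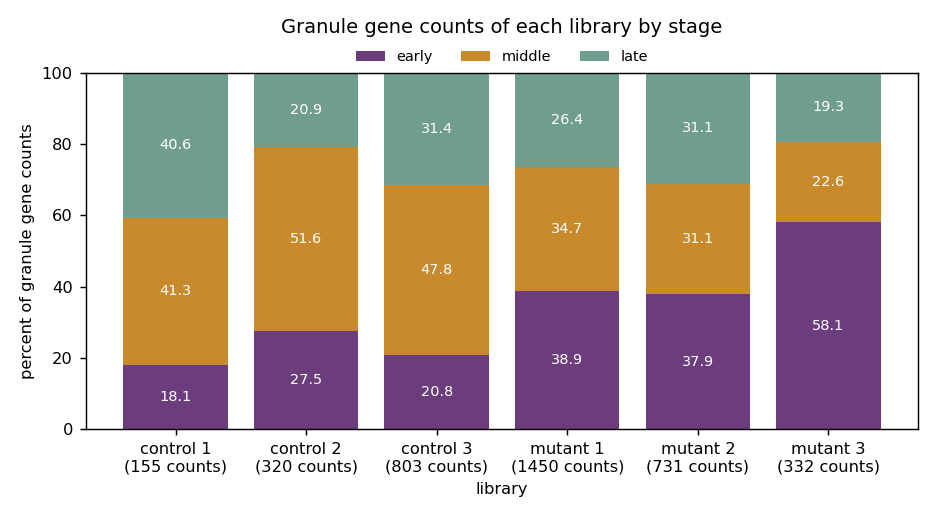
Percent of granule gene counts taken by the early, middle and late genes in each of the 6 libraries, stacked to 100%, with the total of granule counts under each bar. The early share is 18.1 to 27.5% in the 3 controls and 37.9 to 58.1% in the 3 mutants.

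The 10 genes moved together across libraries. Mutant replicate 1 was the highest library for 10 of 10 genes and control replicate 1 the lowest for 8 of 10, the exceptions being S100a9, lowest in control replicate 2, and Ngp, level in control replicate 1 and mutant replicate 3. Mutant replicate 1 also had the highest share of reads not aligned, 18.9% against 12 to 15.2% in the other libraries. Whether this bears on its granule gene levels was not tested. The mean log2 CPM of the 10 was -0.23, 1.61 and 2.33 in controls and 3.81, 2.36 and 1.46 in mutants, so control replicate 3 and mutant replicate 2 were alike and mutant replicate 3 lay below control replicate 2. Over the 45 pairs of genes, Pearson's r of log2 CPM over the 6 libraries ran from 0.518 (Mpo with Ltf) to 0.994 (Prtn3 with Ctsg) with a median of 0.791, and r was 0.979 for Ltf with Camp. These values share libraries and depth and describe only these 6. Of 16142 other genes tested, 18 had an r of at least 0.95 with the mean of the 10. How many unrelated genes would reach this r over 6 libraries was not tested, so the count does not mark a related set. The 8 highest were Cfap43 (0.996), Ggt5 (0.987), Cdkn2aip (0.984), Ccdc65 (0.979), Atp5h (0.978), Dock8 (0.973), D030028A08Rik (0.971) and Spag1 (0.969), and none of these 8 belongs to a list described here.

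Leaving out 1 library at a time moved each of the other 9 genes over a wider range than Mpo. Mpo kept an unadjusted p under 0.05 each time, with a log2 fold change of 1.61 to 2.43 and p of 0.000368 to 0.00275 in edgeR. The log2 fold change ran from 0.52 to 2.91 for Elane, 1.57 to 2.80 for Prtn3, 0.90 to 1.92 for Ctsg, 0.40 to 1.64 for Lcn2, 0.31 to 1.68 for S100a8 and 0.13 to 1.70 for S100a9, while those of Ltf, Camp and Ngp changed sign. The low end came without mutant replicate 1 in each of these but Ctsg, for which it came without control replicate 1. Without mutant replicate 1, the log2 fold change of Mpo remained 1.61 while the median over the early genes was 1.24, over the middle genes -0.44 and over the late genes 0.22, the median over the 10 was 0.36 with 7 of 10 above 0, and Prtn3 no longer passed (p of 0.155). Without control replicate 1, the library with muscle markers, the medians were 1.55 for the early, 0.16 for the middle and 0.75 for the late genes and 0.78 over the 10, with 8 of 10 above 0, and the early share differed by 20.8 percentage points. Without control replicate 3 they were 2.46, 1.20 and 1.69. The early median was above the late and the late above the middle median in each of these fits.

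Mpo overlaps an antisense gene. Gm11505 lies on the other strand and shares 512 exon bases with Mpo. These are 15.0% of the exon bases of Mpo, while the exons of Gm11505 total 0.737 kb. The strand setting of the counting was not given, so it is not known to which gene reads from the shared bases went. The counts of Gm11505 may hold reads of Mpo, so its values are not independent of those of Mpo. Gm11505 had 7, 14 and 35 counts in controls and 134, 45 and 49 in mutants, higher in every mutant library. Its log2 fold change was 2.22 (SE 0.64; unadjusted p of 0.00586 and adjusted p of 0.676 in edgeR). With both counted as 1 gene, an alternative chosen after seeing the data, the log2 fold change was 2.17 (SE 0.47; unadjusted p of 0.000857). Plppr3, listed as Lppr3, likewise shares 159 exon bases with Prtn3 on the opposite strand, 9.18% of the exon bases of Prtn3. The log2 fold change of Plppr3 was 0.45 (unadjusted p of 0.0819 in edgeR).

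**Figure D4:**
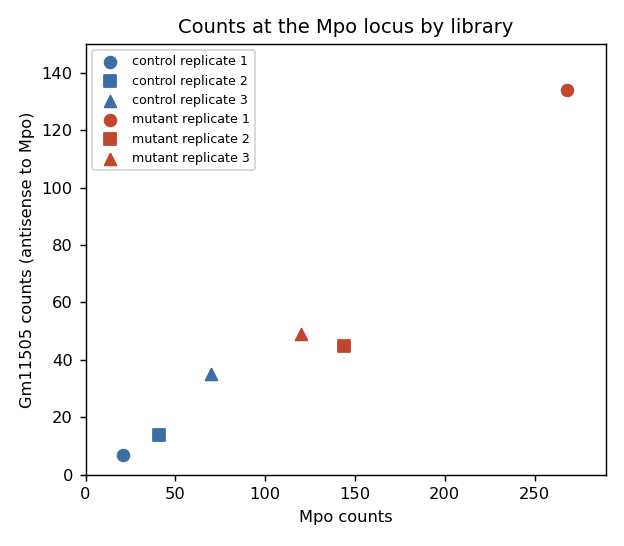
Counts of Gm11505 against counts of Mpo in each library, both axes linear from 0. The 3 mutant libraries hold 120 to 268 Mpo and 45 to 134 Gm11505 counts, and the 3 controls 21 to 70 and 7 to 35.

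Genes beside the granule genes on the chromosome had no common direction. Of 16 neighbouring protein-coding genes outside the 10, 11 were tested, of which 4 were above 0, with log2 fold changes of -1.56 to 0.31 and 1 unadjusted p under 0.05. That gene was Ccrl2, an atypical receptor that binds chemerin, 11.7 kb from Ltf, which was lower in mutants at 0.926 ± 0.341 against 2.71 ± 1.44 CPM (SD, n = 3; log2 fold change -1.56, SE 0.63, unadjusted p of 0.033 and adjusted p of 0.676 in edgeR). Cfd, the complement factor D gene 2.64 kb from Elane, was at -0.20. Lpo, the peroxidase gene 2.02 kb from Mpo, had 26 counts in all and was not tested.

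Other genes of the neutrophil lineage were described as lists. Of 7 further promyelocyte and azurophil genes, 4 were tested, 4 of 4 were above 0 (48.4% of all genes) and 0 passed an unadjusted p under 0.05, with a median log2 fold change of 0.23. Without control replicate 2, 3 of 5 tested were above 0. The 2 with most counts were Srgn (0.06), the proteoglycan that packs granule proteases, and Prss57 (0.24), a further serine protease of azurophil granules. Ms4a3, a promyelocyte gene below the filter and named here after its values were seen, was at 0, 0.222 and 0.313 CPM in controls and 1.02, 1.06 and 1.38 CPM in mutants, from 41 counts in all. Of the 3 genes of this list below the filter, 2 had a higher and 1 a lower mean in mutants, the lower one being Bpi (0.263 and 0.0651 CPM, from 10 counts), the gene of a bactericidal protein. Of 12 further specific and gelatinase granule genes, 6 were tested, 2 were above 0 and 0 passed, with a median of -0.13, and Mmp9, the gelatinase gene, and Hp, the haptoglobin gene, had most counts and log2 fold changes of -0.09 and -0.18.

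Genes of the mature neutrophil were mostly low. Ly6g, the classical surface marker of mouse neutrophils, had 1 count over all 6 libraries, Cxcr2, a chemokine receptor, had 13, and Fpr2, a formyl peptide receptor, had 0. Of 14 mature neutrophil genes 3 passed the filter, with 1 above 0 and a median log2 fold change of -0.27, a sign that turned in 5 of 6 fits with 1 library left out (-0.46 to 0.47). The filter was applied anew in each fit, and 4 genes passed it without control replicate 1, 2 or 3 or without mutant replicate 3. With all libraries the 3 that passed were as follows. The 2 with most counts, which other cells also express, were G0s2 (10.3 CPM in controls and 8.52 in mutants, log2 fold change -0.27), a lipolysis inhibitor, and Il1r2 (2.05 and 0.878 CPM, -1.23), a decoy receptor of interleukin 1. The one above 0 was Asprv1, a skin and neutrophil protease, at 0.75. Csf3r, the receptor for the growth factor G-CSF, also named after its values were seen, was at 0.749, 0.222 and 0.860 CPM in controls and 3.19, 1.47 and 0.425 CPM in mutants, so mutant replicate 3 again lay among the controls. Trem1, an activating receptor of myeloid cells, went the other way, at 0.535, 0.666 and 0.391 CPM in controls and 0.341, 0.0816 and 0 CPM in mutants, from 20 counts. Of the 11 genes of this list below the filter, 7 had a higher mean in mutants and 3 a lower one.

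Genes that act with the granule proteins were mixed. Among 6 subunits of the NADPH oxidase, which makes the hydrogen peroxide that myeloperoxidase uses, 4 were above 0 (48.4% of all genes). At an unadjusted p under 0.05 in edgeR 2 were higher in mutants (2.89% of all genes). These were Ncf1 (1.97 ± 0.951 to 5.05 ± 3.00 CPM, SD, n = 3; log2 fold change 1.34, SE 0.59, p of 0.0443) and Ncf4 (0.922 ± 0.150 to 2.54 ± 1.35 CPM; log2 fold change 1.44, SE 0.61, p of 0.0389), with adjusted p-values of 0.691 and 0.683. Without mutant replicate 1, the highest library for the granule genes, 2 of 6 subunits were above 0, 0 passed an unadjusted p under 0.05 and the median turned from 0.23 to -0.29, and 0 passed without control replicate 2, control replicate 3 or mutant replicate 2 either. Of 7 tested transcription factors of granulopoiesis, 7 were above 0 (48.4% of all genes) with a median of 0.46, and 1 was higher at an unadjusted p under 0.05 (2.89% of all genes), while Gfi1, a repressor in the same lineage, was below the filter at 0.553 CPM in controls and 0.179 CPM in mutants (21 counts). The gene with an unadjusted p under 0.05 was Cebpd, a C/EBP factor that many other cells also express, at 15.4, 13.7 and 12.2 CPM in controls and 28.6, 20.0 and 21.99 CPM in mutants, with no overlap (log2 fold change 0.77, SE 0.21, unadjusted p of 0.00413 and adjusted p of 0.629 in edgeR). Cebpa and Cebpe, which act at the promyelocyte and myelocyte steps, were at 0.79 and 0.92 with unadjusted p-values of 0.0651 and 0.369 in edgeR. With 1 library left out, 5 (without control replicate 1) to 7 of the 7 factors were above 0. Their median ran from 0.38 (without control replicate 1) to 0.87 (without mutant replicate 2). Factors higher at an unadjusted p under 0.05 in edgeR numbered 1 to 3, the most without mutant replicate 2 (4.73% of all genes). Among 9 growth factors and chemokines, only Cxcl12, the ligand that holds neutrophils in marrow, was tested, with a log2 fold change of 0.71 (SE 0.30; unadjusted p of 0.0385), a call lost without control replicate 2 or 3 or without mutant replicate 1 or 2, and Csf3 had 6 counts, Cxcl1 had 20 and Cxcl2 had 0. Of 6 receptors for the granule proteins and 6 inhibitors of their proteases, 0 passed an unadjusted p under 0.05, with medians of 0.10 and 0.28. The receptors with most counts were Lrp1 (0.07), which takes up lactoferrin, and Bsg (0.23), which binds S100A9, and the inhibitors with most counts were Serpinb6a (-0.19), which blocks cathepsin G, and Serpina3n (0.88).

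Markers of other cells that such a sample can hold were read beside the granule genes. The 10 red blood cell precursor genes found summed to 382, 70.8 and 134 CPM in controls and 310, 484 and 243 CPM in mutants, with 9 of 10 above 0 (48.4% of all genes), a median log2 fold change of 0.94 and Slc4a1, the anion exchanger of the red cell membrane, at 2.68 (SE 0.60; unadjusted p of 0.00114 and adjusted p of 0.553 in edgeR). Without control replicate 1 their median was 1.99 with 6 of 10 higher at an unadjusted p under 0.05, against 5.25% of all genes in that fit. Without control replicate 2 or without mutant replicate 2 their median was 0.53. In each of these fits 1 of 10 was higher at that p, against 2.19 and 4.73% of all genes. The highest library on this list was mutant replicate 2, whereas it was mutant replicate 1 on the granule genes. The 13 monocyte and macrophage genes summed to 144, 128 and 154 against 204, 114 and 138 CPM, with 8 of 10 tested above 0 (48.4% of all genes) and a median of 0.39. Emr1 and F13a1 were below 0, at -0.56 and -0.18. Of the 3 genes of this list below the filter, 1 had a higher and 2 a lower mean in mutants. Among them Vsig4, with 39 counts in all, was lower in every mutant library than in any control. In this list Cd68, a lysosomal protein of macrophages, was at 4.65 ± 0.954 CPM in controls and 7.76 ± 0.0908 CPM in mutants (SD, n = 3; log2 fold change 0.74, SE 0.32, unadjusted p of 0.0401 in edgeR), with no overlap. Without mutant replicate 1 the median of the list was 0.02 with 6 of 10 above 0, and 0 genes passed that p without it, without control replicate 2 or 3, or without mutant replicate 3. Mast cell and basophil genes summed to 3.00, 2.11 and 3.21 CPM in controls and 4.67, 2.69 and 4.89 CPM in mutants. Of these, 2 were tested and 2 were above 0, with a median of 1.28 (1.08 to 1.52 with 1 library left out). Of the 7 below the filter, 5 had a higher and 2 a lower mean in mutants. Eosinophil genes summed to 1.80 to 5.46 CPM in each library. These 2 lists had 0 genes at an unadjusted p under 0.05 in edgeR. The 8 osteoblast genes summed to 4730 to 14206 CPM in controls and 12748 to 21161 CPM in mutants, their median log2 fold change being 0.26, or 0.94 without control replicate 1. Most of each sum was Col1a1 alone, at 3879 to 12862 CPM in controls and 11537 to 20231 CPM in mutants. Of the 8 osteoblast genes 5 were above 0, while Runx2 (-0.55), Sp7 (-0.41) and Alpl (-0.25) were below 0. The 6 skeletal muscle genes (Acta1, Ckm, Myh4, Myh1, Tnnt3 and Mylpf) had a median of -3.11 with 6 of 6 at an unadjusted p under 0.05 and the mutant lower, which rested on control replicate 1, since without it the median was 1.01 with 3 of 6 at an unadjusted p under 0.05 and the mutant higher, against the same 5.25%. The part of these other cells in the levels of the granule genes was not tested.

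**Figure D5:**
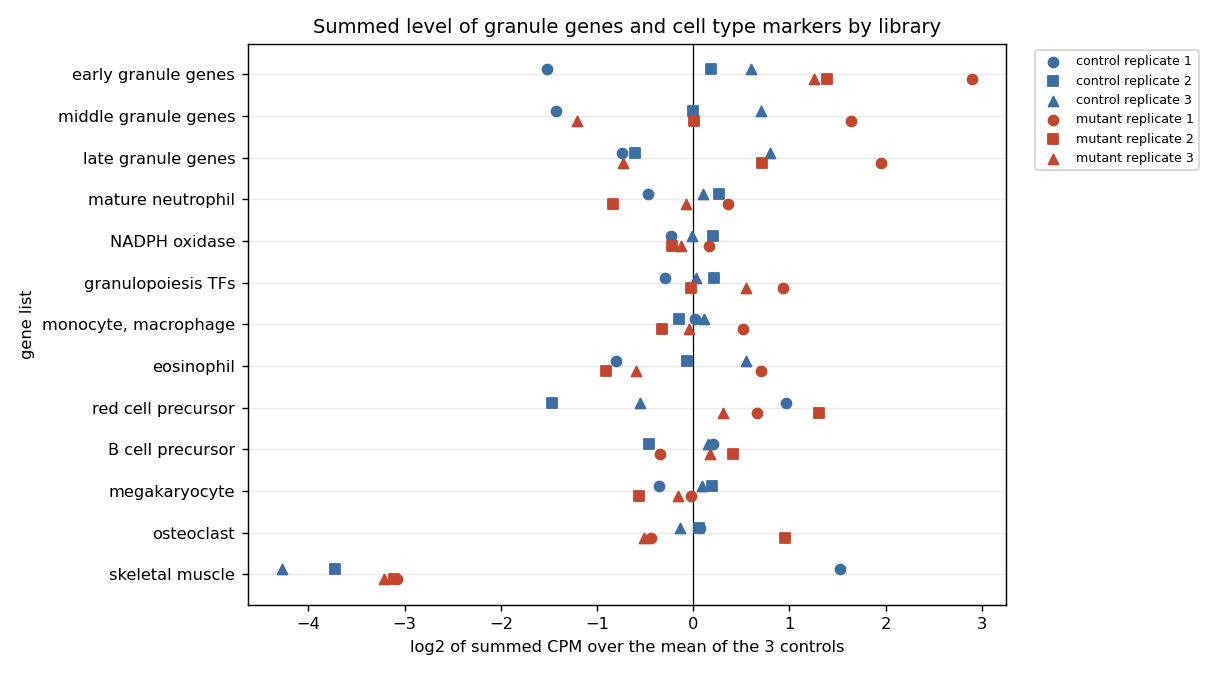
Summed CPM of the granule genes and of cell type marker lists in each library, as log2 over the mean of the 3 controls (0, vertical line), 1 symbol per library. Early granule genes lie above 0 in all 3 mutants, red blood cell precursor genes are highest in mutant replicate 2, and skeletal muscle genes are highest in control replicate 1.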

How the data were processed

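RNA from pooled thoracic and lumbar IVDs was made into poly(A) libraries and sequenced in pairs by the authors. The authors deposited raw counts per gene symbol, 1 file per library. The submitters' notes name STAR 2.5.3a, HTSeq and DESeq2 with mm10, while the methods name HISAT2 on GRCm38, and the strand setting was not given in the sources used here. A table with the authors' own comparison and normalized values of selected genes was not used. Between 40.4 and 44.2% of reads per library were on genes, 9061491 to 12017008 counts, and rows that name no gene were left out of library sizes. Aligned reads on no annotated feature made up 39.4 to 43.3% per library.

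Counts were scaled by TMM and filtered by filterByExpr (minimum 10), and all genes were tested by edgeR 4.0.16 (quasi-likelihood, genotype only, Benjamini-Hochberg) in R 4.3.3. CPM are TMM-scaled. DESeq2 1.42.0, limma 3.58.1 and the other alternatives are named in the closing section. The standard error is the log2 fold change over the square root of F. Correlations use log2 CPM with a prior count of 0.5, and lengths are the exon union of GENCODE M21. P-values measure the spread between the 3 pools of a genotype.

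The granule genes, the lists and the tests were chosen with earlier results of these data known. All 10 granule genes are named. From each list the text names genes with an unadjusted p under 0.05, or otherwise the 2 tested genes with most counts. The eosinophil list had 1 tested gene and the T and NK cell list 0. Beyond these the text names some at or near 0, some of known role and those said to be named after their values were seen. It also names some genes lower in mutants within lists whose median was above 0. Adgrg6 and the 8 genes most like the 10 are also named, and the nearest protein-coding genes on each side are summarised with 3 named.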

Additional observations from a re-analysis of the deposited data

How the results depend on the processing

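The log2 fold changes of Mpo, Elane, Prtn3, Ctsg, Lcn2, S100a8 and S100a9 stayed above 0 under all 13 alternatives. Those of Ltf, Camp and Ngp were -0.17, -0.14 and -0.15 in limma-voom with quality weights, and ran from -0.78 to 1.21, -0.42 to 1.19 and -0.45 to 1.19 with 1 library left out at a time, all 3 being below 0 without mutant replicate 1 and Ltf (-0.13) and Camp (-0.09) also without control replicate 1. The cause was not tested. The number of granule genes with an adjusted p under 0.05, 0 in edgeR (2 at an unadjusted p under 0.05), was 2 without the low-count filter (Mpo 3.6e-05 and Prtn3 0.0232) and 1 in DESeq2 without a prior (Mpo 0.00134), where Elane gained (0.0170) and Prtn3 lost (0.114) an unadjusted p under 0.05, and the adjusted p of Mpo ran from 3.6e-05 to 0.999 over the alternatives. At an unadjusted p under 0.05 there were 5 without the filter (2.87% of all genes, mutant higher), 1 in limma-voom (4.54%; Prtn3 0.0628), 1 with the replicate block (2.45%), and 1 (2.24%, without mutant replicate 1) to 5 (1.76% without control replicate 3, 2.06% without mutant replicate 3) with 1 library left out. Genes without overlap between genotypes numbered 2 to 5, the most without mutant replicate 3. These counts stand against 9.81% of all genes higher without overlap in that fit, and 5.45% with all libraries. The filter was applied anew in each fit with 1 library left out, so the tested genes of a list could differ. Of the growth factors and chemokines 1 was tested with all libraries and 2 without control replicate 1 or 3, the fits in which their sign changed. The median of a marker list changed sign with some library left out in 11 lists, a check chosen after seeing the data. These were skeletal muscle (-3.67 to 1.01, above 0 without control replicate 1), mature neutrophil (-0.46 to 0.47), specific and gelatinase granules (-0.51 to 0.33), NADPH oxidase (-0.29 to 0.54), growth factors and chemokines (-0.36 to 0.71), B cell precursors (-0.20 to 0.30), eosinophils (-1.39 to 0.48), megakaryocytes (-0.022 to 0.25), osteoclasts (-1.30 to 0.34), nucleus pulposus (-0.13 to 0.54) and dividing cells (-0.24 to 0.24). Library totals alone moved the median of all genes from -0.01 to -0.13, and all 10 granule genes stayed above 0. Whether replicate numbers pair the libraries was not given. Correlations of same-numbered deviations were 0.159, -0.132 and 0.101, and those of other pairs ran from -0.265 to 0.179. With 3 libraries per genotype these values can neither show nor exclude pairing. With the replicate block in edgeR the p of Mpo was 0.00253 and that of Prtn3 0.0648, with 0 genes in all at an adjusted p under 0.05 against 1 without it. Over all genes, an adjusted p under 0.05 was found for 245 without the filter, 58 in DESeq2, 0 in limma-voom and 31 without control replicate 1. Depth limits Ctsg most, with 0 to 37 counts in a library.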

Other observations

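Fcnb, the ficolin B gene that maturing neutrophils of the marrow express, fell below the filter and was named after its values were seen. It was at 0.214, 0 and 0.313 CPM in controls and 3.98, 1.22 and 0.637 CPM in mutants, from 62 counts in all. All mutant libraries lay above all controls, as for Ms4a3, Mpo and Prtn3, and no test was made. Its list of specific and gelatinase granule genes was mixed, with Pglyrp1 (0.81) and Chil3 (0.37) above 0 and Padi4 (-1.13), Itgam (-0.57), Hp (-0.18) and Mmp9 (-0.09) below 0 among those tested, 0 of them at an unadjusted p under 0.05 in edgeR. Of the 6 below the filter, 3 had a higher and 3 a lower mean in mutants.

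Lists of other marrow and bone cells were read at an unadjusted p under 0.05 in edgeR, which 7.21% of all genes passed. The 10 B cell precursor genes had 5 tested and 0 past it, their median log2 fold change being 0.14, and Ebf1, a B lineage transcription factor that mesenchymal cells also express, had most counts and was itself at 0.14, followed by Pax5 (-0.28). The 6 megakaryocyte and platelet genes had 4 tested and 0 past it (median 0.13; Gp1bb -0.42 and Itga2b -0.11 with most counts), the 7 osteoclast genes 3 tested and 0 past it (median 0.20; Ctsk 0.20 and Acp5 0.28; without mutant replicate 2, median -1.30 with 2 of 4 tested past it and the mutant lower), and of the 6 T and NK cell genes 0 were tested. Of 6 genes of dividing cells, 3 were above 0 with a median of -0.08, and Mki67, a proliferation marker, was at 33.0 CPM in controls and 33.4 CPM in mutants, followed by Top2a (-0.28). Of 8 osteoblast genes, 4 passed, 3 of them higher in mutants, and 2 higher without control replicate 2 or 3 or without mutant replicate 2 or 3. These were Bglap (5.83 to 18.1 CPM, log2 fold change 1.64, SE 0.32), Bglap2 (log2 fold change 1.31) and Col1a1 (1.05), and Runx2 was lower (-0.55), a call lost without control replicate 1 or mutant replicate 3.

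Of the disc lists, the 5 annulus and tendon genes had a median of 0.47 with 2 at an unadjusted p under 0.05 in edgeR, Tnmd (0.96) and Thbs4 (1.09), both higher in every mutant library than in any control. With 1 library left out that median ran from 0.27 (without mutant replicate 3) to 0.84 (without control replicate 2). Genes past an unadjusted p under 0.05 then numbered 2, or 3 without control replicate 2 (2.19% of all genes, mutant higher) or mutant replicate 2 (4.73%). The 8 cartilage genes had a median of -0.30 with 1 past it, Matn3 (-0.78), lower in every mutant library, a call lost when control replicate 1 or either of mutant replicates 2 and 3 was left out. The 6 nucleus pulposus genes (median 0.19; Car3 0.28 and Krt19 -0.01 with most counts) and the 6 endothelium genes (median 0.23; Pecam1 0.33 and Cdh5 0.48) had 0 past it, but without control replicate 1 the endothelium genes had 3 of 6 past it with the mutant higher, against 5.25% of all genes in that fit, and a median of 0.50. Without control replicate 2 the endothelium median was 0.01, with 3 of 6 above 0 and 0 at an unadjusted p under 0.05. Among genes of rarer cells, Mcpt4 (1.08) and Tpsb2 (1.48) of mast cells and Prg2 (-0.07) of eosinophils were tested and did not pass.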
